A study of Mus musculus with 10 samples.

Results

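The elastic fibre genes Eln, Fbn1, Fbln1, Fbln2, Fbln5, Efemp2, Emilin1, Lox, Loxl1 and Loxl2, were followed through 10 RNA-seq libraries of cultured mouse olfactory epithelium. The 10 genes were chosen by name, for their place in the fibre, but with earlier results of these data known. All were found among the 41091 gene identifiers by matching Ensembl identifiers to GENCODE symbols. The cells came from adult C57BL6 mice whose tissue was taken 9 days after methimazole, a compound that strips the olfactory epithelium and sets off its regrowth, and were grown on gelatin with EGF, FGF2 and heparin. The 3 groups of cultures had received lentivirus with a short hairpin: 3 libraries with a hairpin against Cbx8 (shCBX8 1, 2 and 6), 3 with a hairpin against Cbx7 (shCBX7 1, 2 and 5) and 4 with a non-targeting scrambled hairpin (shCTR 1, 2, 5 and 6). CBX7 and CBX8 are chromodomain proteins of Polycomb repressive complex 1, which keeps developmental genes silent. All groups shared the lesion, the culture and the lentivirus. The labels name 1 hairpin treatment per target. The study text calls the samples biological replicates and counts 3 per treatment, but does not say whether they came from separate animals or dishes, so the spread behind each p-value may be partly technical.

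An elastic fibre is built outside the cell in steps. Fibrillin molecules first assemble into microfibrils, on which tropoelastin, the product of Eln, is laid down. Fibulins and EMILIN1 link elastin to the microfibrils and to the cell, and lysyl oxidases, which need copper, oxidise lysines so that the elastin becomes cross-linked and insoluble. In the nasal mucosa such fibres belong to the connective tissue under the epithelium, and their main makers in most organs are fibroblasts and smooth muscle cells.

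Gene counts per library ran from 22763014 to 50463172. Cbx8 was lower in every shCBX8 library (4.71 to 5.14 CPM) than in every shCTR library (10.2 to 15.9 CPM), with an exact two-sided permutation p = 0.0286, the smallest that 35 splits allow. Cbx7 overlapped between shCBX7 (3.64 to 13.1 CPM) and shCTR (5.30 to 17.7 CPM; exact two-sided permutation p = 0.314), so it does not check that label, and shCBX7 names libraries by their label only. CPM are counts relative to the scaled library size. Of the labelled tissue's markers, Krt5 (8.37 to 336 CPM) and Krt14 (32.6 to 648 CPM) of horizontal basal cells were present in all 10 libraries. Trp63 and Krt15 of the same list were as low as 1.62 and 0.238 CPM. Omp of mature olfactory neurons stayed at or under 0.605 CPM. The basal list summed to 314 to 1645 CPM over shCBX7 and shCTR. Fibroblast markers summed to more in each of these libraries, 5952 to 31132 CPM. In shCBX8 the basal sum was the higher in libraries 1 and 6 and the lower in 2. These markers do not settle which tissue the cells came from. The 3 libraries numbered 2 stood apart from the others of their groups in fibroblast transcripts, and unmapped reads made up 9.83 to 21.7% of reads in shCTR against 5.03 to 7.81% in the knockdown libraries. Libraries shCBX8 1 and 6 were much more alike than any other pair of the same group (chi-square per degree of freedom 28.1, against 111 to 445 for the other pairs).

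Per kilobase of exon, the cross-linking enzyme Loxl1 was the most abundant of the 10 transcripts in shCTR cultures, and elastin itself was the least abundant. Loxl1 averaged 79.0 ± 44.7 CPM per kb (SD, n = 4) in shCTR, Lox 63.8 ± 54.9, Efemp2 58.0 ± 27.0, Emilin1 51.2 ± 32.3, Fbn1 35.7 ± 19.0, Fbln2 27.9 ± 12.9, Fbln1 15.2 ± 11.6, Fbln5 12.1 ± 13.1, Loxl2 9.01 ± 8.32 and Eln 1.14 ± 1.84 CPM per kb. No gene in this order differed from its neighbour by more than the larger of their SDs. In shCBX8 cultures the order was another: Fbln2 led with 41.5 ± 10.7 CPM per kb (n = 3), then came Efemp2 at 28.3 ± 12.6, Lox at 28.2 ± 8.22 and Loxl1 at 17.9 ± 17.7, while Fbn1 was at 3.93 ± 5.46, Fbln1 at 1.51 ± 1.42 and Eln at 0.0141 ± 0.00809 CPM per kb. There, Fbln2 against Efemp2, Loxl2 against Fbln1, and Fbln1 against Eln exceeded the larger SD, and the other neighbours did not. The shCBX7 order had Loxl1 first, at 74.1 ± 43.3 CPM per kb (n = 3), and Eln last, at 1.36 ± 2.14 CPM per kb. Exon length is the union over all GENCODE transcripts, so these levels are approximate.

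**Figure D1:**
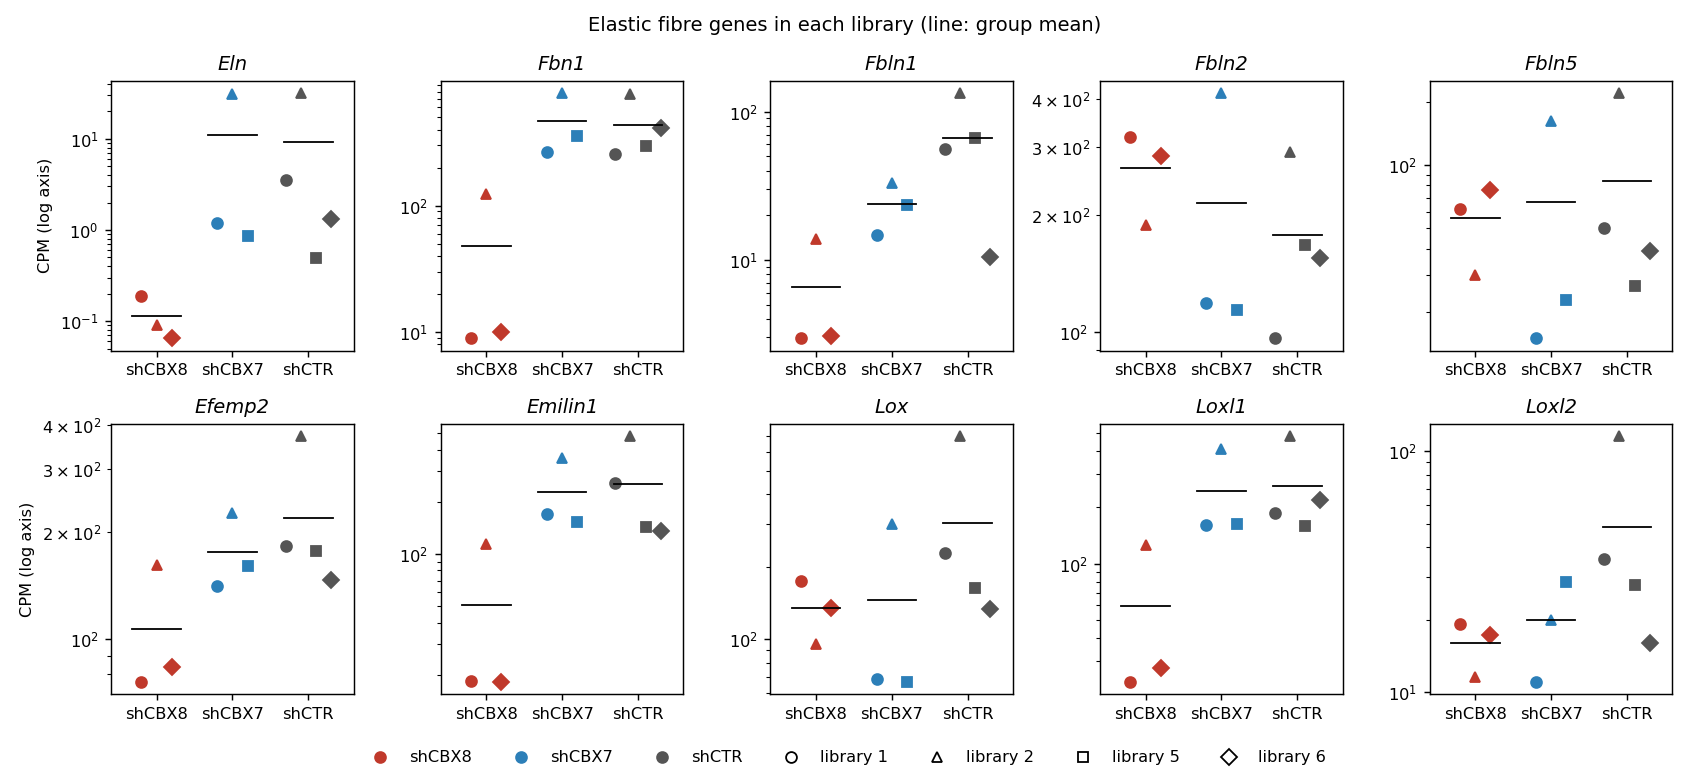
Level of each of the 10 elastic fibre genes in each library, as CPM on a log axis, with shCBX8 in red, shCBX7 in blue and shCTR in grey; marker shape gives the library number and the line the group mean. The triangles, libraries numbered 2, are the highest of their group in every panel for shCTR, and Eln lies between 0.0645 and 0.189 CPM in shCBX8.

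With the Cbx8 hairpin, 5 of the 10 genes fell against control: Eln, Fbn1, Fbln1, Emilin1 and Loxl1. None rose. The other 5, Fbln2, Fbln5, Efemp2, Lox and Loxl2, did not pass at an adjusted p of 0.05 in edgeR's quasi-likelihood test over 16669 genes. The test called 32.9% of all genes in this comparison, 15.9% lower and 17.0% higher. The median log2 fold change was -1.87 over the 10 genes and -0.01 over all genes tested, and 4 of the 10 had groups that did not overlap, all lower in shCBX8, where 19.5% of all genes were lower and 22.9% higher without overlap. Of the 10 genes, 9 had a log2 fold change below 0, against 50.8% of all genes. Scaling by library size alone called 3765 genes higher and 1839 lower, against 2827 and 2651 here, and called 5 of the 10 genes, all lower. The calls rested on few libraries: none of the 10 genes passed without shCBX8 1 or without shCBX8 6, or without shCTR 1 and 2, 1 passed without shCTR 2, 2 without shCTR 1 or without shCTR 5, 3 without shCBX7 1 or without shCBX7 5, and 2 when only these 2 groups were fitted. Calls over all genes fell in each of these fits too, to 13.1% without shCBX8 1, 13.2% without shCBX8 6 and 14.3% without shCTR 1 and 2. They were 26.1% without shCTR 2, 24.2% without shCTR 1 and 24.4% without shCTR 5. The least change was to 29.1% without shCBX7 1, 31.1% without shCBX7 5 and 31.4% with only the 2 groups. In bulk RNA, fewer cells of a type and less transcript per cell cannot be told apart.

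**Figure D2:**
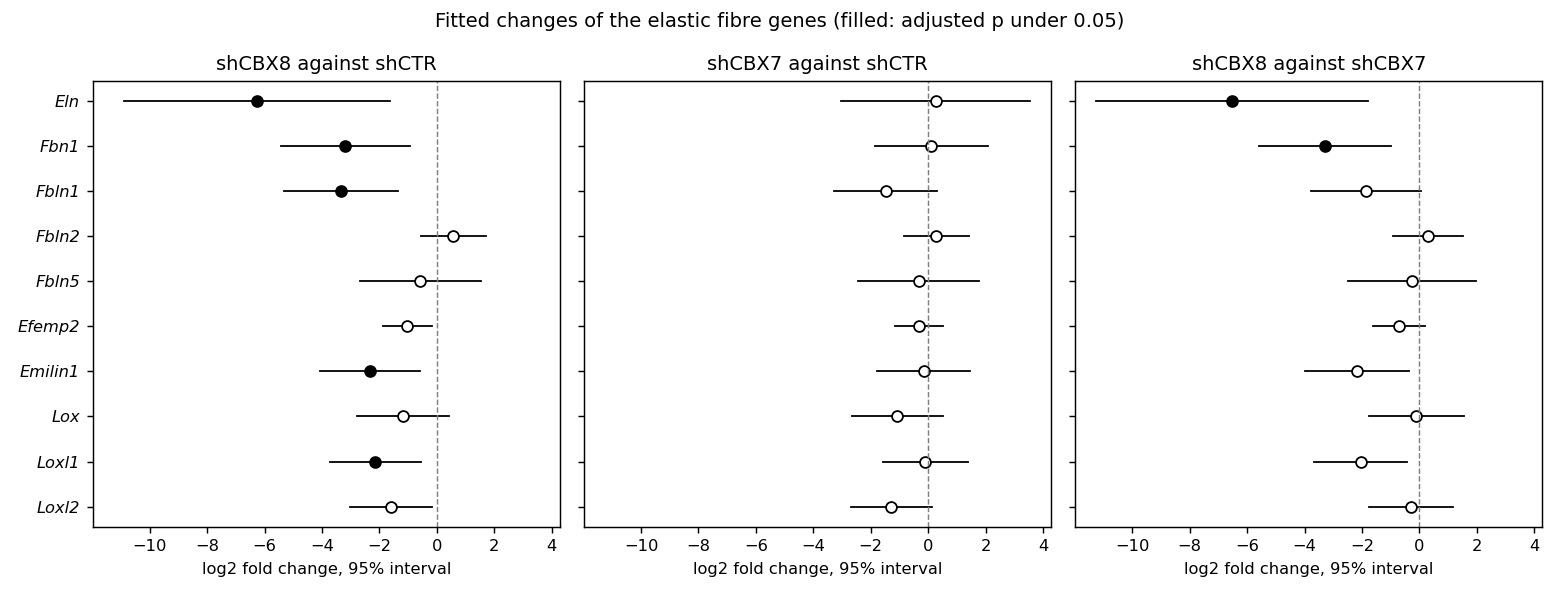
Log2 fold change of each gene (x axis, with its 95% interval) in the 3 comparisons, filled where the adjusted p was under 0.05. In shCBX8 against shCTR the filled points run from -6.26 for Eln to -2.14 for Loxl1, and every interval of shCBX7 against shCTR includes 0.

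Eln encodes tropoelastin, the soluble monomer of the elastic core (ENSMUSG00000029675, chromosome 5, 134702593 to 134747323, minus strand, GRCm38/mm10). It was nearly absent with the Cbx8 hairpin. Eln measured 0.189, 0.0902 and 0.0645 CPM in shCBX8 1, 2 and 6, against 3.56, 31.6, 0.498 and 1.32 CPM in shCTR 1, 2, 5 and 6. Every shCBX8 library lay below every shCTR library, but shCTR 2 alone held most of the control signal. The shCBX8 values rest on 9, 3 and 3 reads, and the shCTR values on 90, 630, 14 and 46. Pooled over libraries, 15 reads in shCBX8 against 780 in shCTR put Eln 61.4-fold lower per scaled read, with an exact binomial 95% interval of 37.0 to 110 that covers counting error only. The fitted log2 fold change was -6.26 (SE 2.06, adjusted p = 0.0432). The call ended without shCBX8 1, 2 or 6 or shCTR 1 or 2 (adjusted p 0.0589 to 0.136), and the value was -3.93 without shCTR 2 and -2.97 without shCTR 1 and 2. Reads on the opposite strand, where the antisense gene Gm30003 shares 267 exon bases with Eln, numbered 1, 0 and 3 in shCBX8 and 1, 11, 4 and 1 in shCTR.

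Transcripts of Fbn1 and Emilin1 also fell. Fbn1, fibrillin 1, the backbone of microfibrils and the protein altered in Marfan syndrome (ENSMUSG00000027204, chromosome 2, 125300594 to 125507993, minus strand), measured 8.86, 124 and 9.93 CPM in shCBX8 1, 2 and 6, against 256, 764, 299 and 413 CPM in shCTR 1, 2, 5 and 6. The groups did not overlap, although shCBX8 2 stood far above the other shCBX8 libraries. Between the groups the log2 difference was -3.19 (SE 1.0, adjusted p = 0.0365), and the call ended without shCBX8 1 or 6 or shCTR 2, 5 or 6 (adjusted p 0.0527 to 0.103). Emilin1, a glycoprotein of the interface between elastin and microfibrils that also restrains TGF-beta processing (ENSMUSG00000029163, chromosome 5, 30913402 to 30921277, plus strand), measured 18.3, 114 and 18.2 CPM in shCBX8, against 256, 477, 143 and 135 CPM in shCTR. Again no shCBX8 library reached the lowest shCTR library, and shCBX8 2 came closest. Its log2 fold change was -2.33 (SE 0.78, adjusted p = 0.0455), and the call ended without shCBX8 1 or 6, shCBX7 1 or 5 or shCTR 1, 2 or 5 (adjusted p 0.0552 to 0.141).

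The 4 fibulin genes did not move as 1 group. Fbln1, which encodes a fibulin of basement membranes and elastic fibres that binds fibronectin (ENSMUSG00000006369, chromosome 15, 85205949 to 85286535, plus strand), measured 2.95, 13.8 and 3.07 CPM in shCBX8, against 55.6, 133, 66.6 and 10.5 CPM in shCTR. The groups overlapped, since shCTR 6 lay below shCBX8 2. Its log2 fold change of -3.34 (SE 0.88, adjusted p = 0.0205) passed, and passed without any 1 library other than shCBX8 1 or 6 (adjusted p 0.0806 to 0.0809 without these). Efemp2, the gene of a fibulin that recruits lysyl oxidase to tropoelastin and without which mice form no proper elastic fibres (ENSMUSG00000024909, chromosome 19, 5473954 to 5482517, plus strand), measured 76.1, 162 and 83.7 CPM in shCBX8, against 183, 371, 178 and 147 CPM in shCTR. The groups overlapped through shCBX8 2 and shCTR 6. Its log2 fold change was -1.03 (SE 0.38, adjusted p = 0.0631), and with the library number as a block, which pairs the libraries of these groups, it was -1.05 and passed (adjusted p = 0.00401). It also passed without shCBX8 2 (adjusted p = 0.0200), without shCTR 6 (adjusted p = 0.0486) and with DESeq2 (adjusted p = 0.0265).

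Fbln5 and Fbln2 did not pass in either direction with the Cbx8 hairpin. Fbln5, whose product ties elastin to cell-surface integrins (ENSMUSG00000021186, chromosome 12, 101746565 to 101819055, minus strand), measured 61.9, 29.9 and 75.9 CPM in shCBX8, against 50.1, 219, 26.7 and 39.0 CPM in shCTR. The group means differed mainly through shCTR 2: the log2 fold change was -0.58 (95% interval -2.69 to 1.53, adjusted p = 0.659), and 0.51 without shCTR 2. Fbln2, which encodes a fibulin of vessel walls and developing mesenchyme (ENSMUSG00000064080, chromosome 6, 91212455 to 91272540, plus strand), measured 320, 189 and 285 CPM in shCBX8, against 96.1, 292, 167 and 155 CPM in shCTR. It was the only 1 of the 10 genes with a positive value, 0.57 (95% interval -0.55 to 1.70, adjusted p = 0.401).

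Promoters of 3 fibulin genes are shown, the only ones among the windows searched with a window outside every GENCODE exon. In the first fit of shCBX8 against shCTR, Fbln1 fell, Efemp2 was lower but missed the threshold, and Fbln5 had an interval on both sides of 0. Fbln1 and Efemp2 varied alike over the 10 libraries (r = 0.92), so a pass and a near miss do not set them apart. A link between promoter sequence and these changes was not tested. RefSeq promoter windows (GRCm38.p6) were found for 6 of the 10 genes, and the windows below are those of the 250 bases before a transcript start that lie outside every GENCODE exon, at chr15:85205699-85205948 (plus strand), chr19:5473696-5473945 (plus strand) and chr12:101819120-101819369 (minus strand). These 5 motifs were searched on both strands: the TATA box TATAAA, the GC box GGGCGG, the CCAAT box CCAAT, the AP-1 site TGANTCA and the TEAD site GGAATG, none of which overlapped another here. Capitals mark the matches.
Fbln1: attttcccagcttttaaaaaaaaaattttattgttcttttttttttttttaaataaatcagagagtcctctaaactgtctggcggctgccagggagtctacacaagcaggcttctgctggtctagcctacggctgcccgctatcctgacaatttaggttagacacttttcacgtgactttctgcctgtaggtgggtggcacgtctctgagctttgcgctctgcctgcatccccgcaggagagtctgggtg
Efemp2: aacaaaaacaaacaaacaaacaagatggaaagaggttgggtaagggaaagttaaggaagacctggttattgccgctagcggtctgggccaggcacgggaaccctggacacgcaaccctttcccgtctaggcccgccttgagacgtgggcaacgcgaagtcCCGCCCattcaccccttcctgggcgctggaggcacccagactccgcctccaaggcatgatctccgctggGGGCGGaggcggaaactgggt
Fbln5: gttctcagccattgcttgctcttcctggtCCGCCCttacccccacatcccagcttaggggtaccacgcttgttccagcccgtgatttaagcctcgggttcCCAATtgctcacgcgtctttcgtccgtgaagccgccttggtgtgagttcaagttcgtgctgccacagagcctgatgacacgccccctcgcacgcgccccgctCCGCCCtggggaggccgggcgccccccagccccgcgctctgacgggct
The Fbln1 window shown held none of the 5 motifs and 7 CpG dinucleotides, the Efemp2 window 2 GC boxes and 15 CpG, and the Fbln5 window 2 GC boxes, 1 CCAAT box and 21 CpG. Windows at other starts of the same genes, which touch exons, differed. Another Fbln1 window held 1 GC box and 14 CpG, and another Fbln5 window none of the 5 motifs and 6 CpG. Further Efemp2 windows held 5 GC boxes each, with 27 and 33 CpG. The counts therefore belong to a window rather than to a gene. Over all 32851 RefSeq windows of this length the median was 6 CpG, 32.7% held a GC box and 33.8% a CCAAT box, while 12.4, 6.75 and 12.6% held a TATA box, an AP-1 site and a TEAD site. A match is a run of letters, not a binding site.

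Of the lysyl oxidases, Loxl1 fell, and Lox and Loxl2 did not pass. Loxl1, the enzyme that renews cross-links in adult elastic tissue (ENSMUSG00000032334, chromosome 9, 58287738 to 58313186, minus strand), measured 23.4, 126 and 27.5 CPM in shCBX8, against 186, 478, 159 and 219 CPM in shCTR. The groups did not overlap, and shCBX8 2 was the nearest to control. The log2 fold change was -2.14 (SE 0.70, adjusted p = 0.0430), and the call ended without any 1 library other than shCBX8 2 and shCBX7 2 (adjusted p 0.0521 to 0.141). Lox, the family's founding member, which acts on both collagen and elastin (ENSMUSG00000024529, chromosome 18, 52516067 to 52529867, minus strand), measured 174, 95.9 and 134 CPM in shCBX8, against 229, 694, 163 and 134 CPM in shCTR. Here shCBX8 2 was the lowest library of its group and shCTR 2 the highest of its own, and the other libraries overlapped. The log2 fold change was -1.18 (95% interval -2.77 to 0.41, adjusted p = 0.223). Loxl2, which cross-links collagen IV of basement membranes (ENSMUSG00000034205, chromosome 14, 69609068 to 69695834, plus strand), measured 19.2, 11.6 and 17.4 CPM in shCBX8, against 35.8, 115, 27.9 and 16.0 CPM in shCTR. It overlapped through shCTR 6, with a log2 fold change of -1.60 (95% interval -3.03 to -0.17, adjusted p = 0.0803), and passed without shCTR 6 (adjusted p = 0.0369) and with DESeq2 (adjusted p = 0.0260).

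Set against the control library of the same number, the 10 genes split further. In libraries numbered 2 all 10 genes were lower in shCBX8 than in shCTR, with a median log2 ratio of CPM of -2.74. In those numbered 1, 8 were lower and 2 higher (median -2.13), and in those numbered 6, 6 were lower and 4 higher (median -1.30). Fbn1 was at -4.85, -2.62 and -5.38 for numbers 1, 2 and 6, Emilin1 at -3.81, -2.06 and -2.89, and Loxl1 at -2.99, -1.92 and -2.99. These 3 genes were lower in every pair, and least so in number 2. Fbln5 was at 0.31, -2.87 and 0.96, Fbln2 at 1.73, -0.63 and 0.88, and Lox at -0.39, -2.85 and 0.0037. These 3 were lowest in number 2. Efemp2, at -1.26, -1.20 and -0.81, varied least between the pairs.

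With all 3 libraries numbered 2 left out, a setting chosen after seeing the data, 8 of the 10 genes passed in shCBX8 against shCTR, 6 lower and 2 higher. Fbn1 was then at -5.10 (adjusted p = 0.000179), Emilin1 at -3.28 (adjusted p = 0.000569), Loxl1 at -2.88 (adjusted p = 0.000218), Fbln1 at -3.86, Eln at -3.77 and Efemp2 at -1.07. Fbln2 rose in that fit, by 1.12 (adjusted p = 0.00962), as did Fbln5, by 0.85 (adjusted p = 0.0444), whereas Lox, at -0.17, and Loxl2, at -0.53, did not pass. Its shCBX8 group holds only the similar libraries 1 and 6, and it called 36.4% of all genes.

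**Figure D3:**
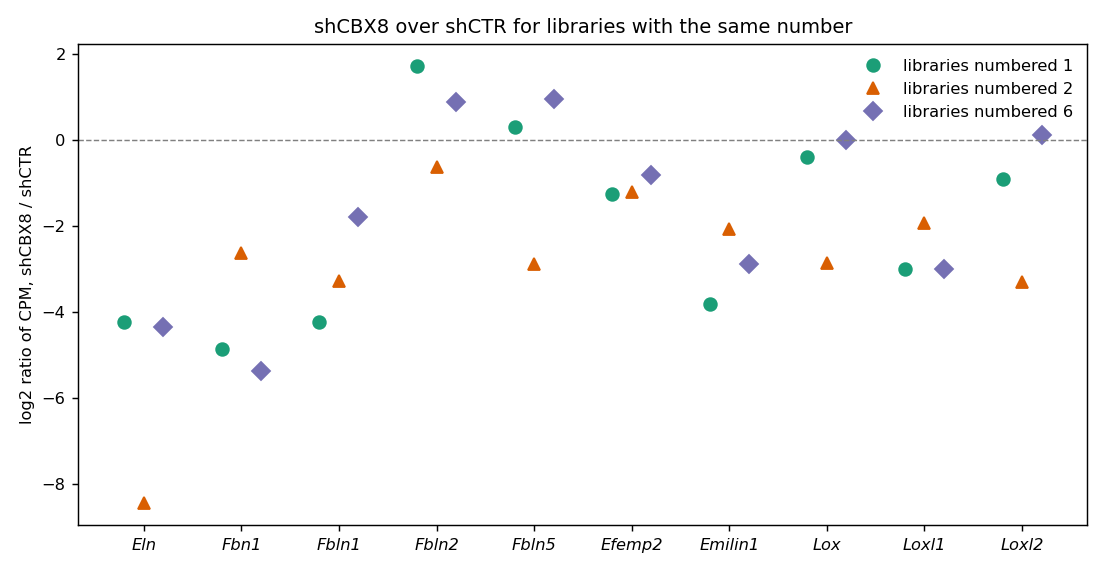
Log2 ratio of CPM, shCBX8 over shCTR, for the libraries numbered 1, 2 and 6 (y axis), for each gene (x axis). Fbn1, Emilin1 and Loxl1 lie below 0 at all 3 numbers, and Fbln5 lies at 0.31 and 0.96 for numbers 1 and 6 but at -2.87 for number 2.

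Across the 10 libraries the genes formed a graded order of likeness rather than 1 block. Pearson's r of log2(CPM + 1) was 0.98 between Fbn1 and Loxl1, 0.98 between Loxl1 and Emilin1, and 0.92 between Efemp2 and Fbln1. Lox and Fbln5 had r = 0.89 and Fbln5 and Fbln2 r = 0.77, but Fbln5 and Fbn1 had r = 0.06 and Fbln2 and Fbn1 r = -0.27. Eln lay between, at 0.79 with Efemp2 and 0.78 with Lox. The 10 points of each r share the groups and the libraries numbered 2, so these values describe the libraries. Of the 10923 other protein-coding genes that averaged 5 CPM or more, the 5 with the pattern most like Eln were Porcn (r = 0.97), Rasl11b (r = 0.96), Borcs7 (r = 0.96), Cyp4v3 (r = 0.96) and Lrpap1 (r = 0.95).

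**Figure D4:**
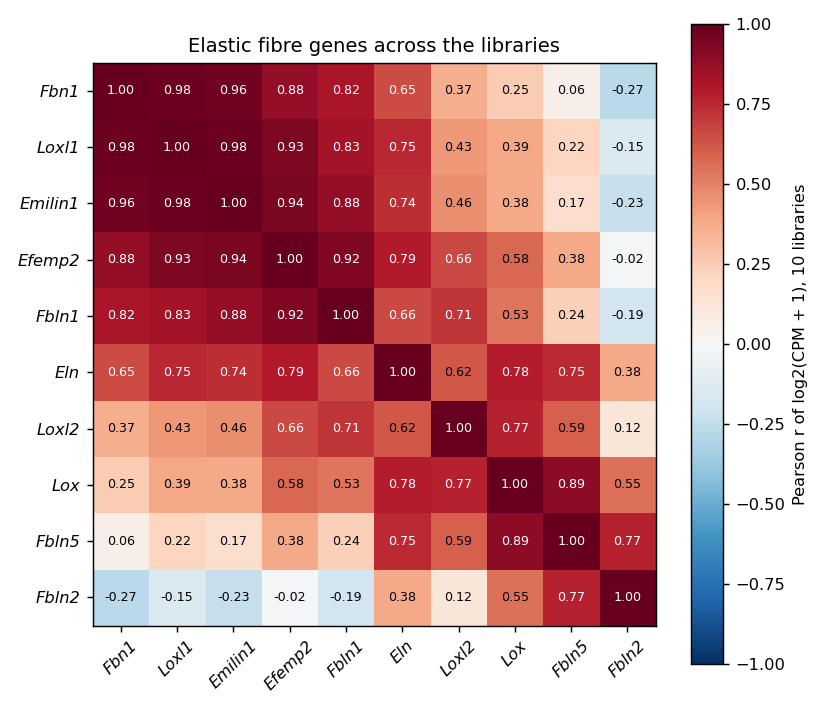
Pearson's r of log2(CPM + 1) over 10 libraries for each pair of the 10 genes, in colour and as a number. Fbn1, Loxl1 and Emilin1 reach 0.96 to 0.98 with each other, and Fbln2 is at -0.27 with Fbn1.

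With the Cbx7 hairpin, none of the 10 genes passed against control, as was true of all genes tested (0% called by edgeR, 5.85% at an unadjusted p under 0.05, and 0.546% called by DESeq2, which called none of the 9 members it gave an adjusted p). No member had an unadjusted p under 0.05 in edgeR. The median log2 fold change was -0.24 over the 10 genes, and 7 were below 0, where 50.0% of all genes were. No member was without overlap between the groups, against 3.73% of all genes lower and 1.70% higher. In shCBX7 1, 2 and 5 Eln measured 1.18, 31.0 and 0.856 CPM, against 3.56, 31.6, 0.498 and 1.32 CPM in shCTR. The shCBX7 2 library matched shCTR 2 in standing far above the rest of its group. Fbn1 measured 266, 776 and 356 CPM in shCBX7, within the shCTR range of 256 to 764 CPM except for library 2, just above it. The log2 fold changes farthest from 0 were those of Fbln1, -1.48 (95% interval -3.29 to 0.32, adjusted p = 0.929), Loxl2, -1.29 (-2.70 to 0.12, adjusted p = 0.901) and Lox, -1.07 (-2.66 to 0.51, adjusted p = 0.929). Fbln1 was lower in shCBX7 than in the shCTR library of the same number, at log2 ratios of -1.91, -2.01 and -1.50 for numbers 1, 2 and 5. Lox was likewise at -1.75, -1.21 and -1.29. Libraries of these 2 groups did not meet the rule for pairing by number, so these ratios are not paired evidence. The library shCTR 6, whose number no shCBX7 library has, held only 10.5 CPM of Fbln1. The 95% intervals reached beyond 1 log2 unit in both directions for Eln, Fbn1, Fbln5, Emilin1 and Loxl1.

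Set against the shCBX7 libraries, 2 of the 10 genes, Eln and Fbn1, were lower in the shCBX8 libraries. In this comparison 28.6% of all genes passed, made up of 13.3% lower and 15.3% higher. This comparison shares its shCBX8 libraries with the one against control. Eln was at -6.52 (SE 2.11, adjusted p = 0.0450) and Fbn1 at -3.29 (SE 1.03, adjusted p = 0.0404), with 0.114 ± 0.0655 CPM (SD, n = 3) in shCBX8 and 11.0 ± 17.3 CPM (n = 3) in shCBX7 for Eln, and 47.6 ± 66.2 and 466 ± 272 CPM in the same order for Fbn1. Loxl1, at -2.05 (adjusted p = 0.0605), Emilin1, at -2.18 (adjusted p = 0.0674), and Fbln1, at -1.86 (adjusted p = 0.129), did not pass, although in all 3 no shCBX8 library reached the lowest shCBX7 library. Over 20 other settings Loxl1 passed in 6, Emilin1 in 4, and Fbln1 and Efemp2 (-0.71 in the first fit) in 2 each. With the library number as a block Loxl1 (adjusted p = 0.00548), Emilin1 (adjusted p = 0.00874) and Efemp2 (adjusted p = 0.0276) passed. DESeq2 also called Loxl1 (adjusted p = 0.0119) and Emilin1 (adjusted p = 0.0135). In all, 5 of the 10 genes were lower without overlap, where 22.6% of all genes were lower and 25.6% higher in that way. Below 0 lay 9 of the 10, against 49.8% of all genes, while 42.7% of all genes had an unadjusted p under 0.05. Lox, at -0.10 (95% interval -1.75 to 1.55), and Loxl2, at -0.31 (95% interval -1.77 to 1.15), did not pass. With the libraries numbered 2 left out, 9 of the 10 genes passed, 6 lower and 3 higher, where 33.9% of all genes passed. The 3 higher ones were Fbln5 at 1.86 (adjusted p = 0.00505), Fbln2 at 1.37 (adjusted p = 0.00812) and Lox at 1.19 (adjusted p = 0.0113). The call of Eln ended without shCBX8 1, 2 or 6, shCBX7 1 or 2 or shCTR 1, and was -3.14 without shCBX7 2. That of Fbn1 ended without shCBX8 1 or 6, any shCBX7 library or shCTR 1, 5 or 6 (adjusted p 0.0518 to 0.109).

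The rest of the elastic fibre pathway was described through 4 lists, whose counts stand against 15.9% of all genes lower and 17.0% higher in shCBX8 against shCTR. Of 19 microfibril and accessory genes, 16 were tested, and 7 fell and none rose in shCBX8 against shCTR. Fbn2, the fibrillin of developing tissue, measured 2.81, 21.4 and 3.53 CPM in shCBX8 and 206, 452, 131 and 109 CPM in shCTR, a log2 difference of -4.61 (SE 0.92, adjusted p = 0.00753) that passed in every setting tried. Adamts10, a microfibril-binding metalloproteinase, fell by 1.73 (adjusted p = 0.00880), Vcan, the proteoglycan versican, was at -2.98 (adjusted p = 0.0102) and Efemp1, a fibulin close to Efemp2, at -2.77 (adjusted p = 0.0223). Without shCBX8 1 or without shCBX8 6, 3 of the list fell, and 2 without shCTR 1 and 2. In the list of latent TGF-beta binding proteins, TGF-beta ligands and receptors, 3 of 10 fell and 1 rose. Ltbp2 was at -3.11 (adjusted p = 0.0112) and Ltbp4, which assists elastin assembly, at -2.74 (adjusted p = 0.0121). The ligand gene Tgfb2 was at 1.26 (adjusted p = 0.0381). Another ligand gene, Tgfb3, was at -0.44 (adjusted p = 0.0492), but did not pass with the block (adjusted p = 0.109), with library-size scaling (adjusted p = 0.244), or without shCBX8 1 or 2, any shCBX7 library or shCTR 1, 2 or 5 (adjusted p 0.0534 to 0.167). Without shCBX8 1 none of this list passed, and 1 without shCBX8 6.

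Among 8 genes of other lysyl oxidases, copper supply and propeptide cleavage, 4 fell and 1 rose. Bmp1, the protease that frees active lysyl oxidase from its precursor, fell by 0.75 (adjusted p = 0.0310), and its relatives Tll1 and Tll2 were at -2.51 and -2.11 (adjusted p = 0.0222 and 0.00954), with Tll2 under 1 CPM in every library. Atox1, a copper chaperone, rose by 0.80 (adjusted p = 0.00370). Of 16 genes of the elastin receptor, elastases and inhibitors, 14 were tested, and 2 rose and 1 fell, a smaller share than the 32.9% called among all genes. The 2 that rose are genes of lysosomal enzymes that are also linked to the elastin receptor. Neu1, the gene of a sialidase, measured 115, 105 and 139 CPM in shCBX8 and 32.6, 27.1, 35.7 and 39.6 CPM in shCTR (1.83, SE 0.16, adjusted p = 0.000751). Glb1, the gene of a galactosidase, was at 0.74 (adjusted p = 0.00447). Ctsa of the same list did not pass and averaged 230 CPM in shCBX8 and 295 CPM in shCTR. Counts per gene do not separate transcript forms, and the receptor itself was not measured. Mmp2, a gelatinase that also cuts elastin, fell by 2.73 (adjusted p = 0.0233), and Ctsk, an elastin-cleaving cathepsin, was at -2.41 (adjusted p = 0.0505). Atox1, Neu1, Glb1, Tll2 and Adamts10 passed without any 1 library, while Bmp1, Tll1, Ltbp2, Ltbp4, Efemp1, Mmp2 and Tgfb2 did not pass without shCBX8 1 or 6. In shCBX7 against shCTR no gene of the 4 lists passed, and their medians lay between -0.11 and 0.28.

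Summed fibroblast markers were lower beside the lower elastic fibre genes. The 15 fibroblast markers summed to 149 to 3120 CPM in shCBX8, against 5978 to 17960 CPM in shCBX7 and 5952 to 31132 CPM in shCTR, without overlap between shCBX8 and the other groups. Within each group the library numbered 2 held the highest sum, at 3120 CPM in shCBX8, 17960 CPM in shCBX7 and 31132 CPM in shCTR. Of the 14 markers tested, 3 fell in shCBX8 against shCTR, Col1a1, Postn and S100a4, where 15.9% of all genes fell, and all 14 had a log2 fold change below 0. No marker of the list was at 0 in all libraries, although Clec3b stayed under 1 CPM throughout. The 12 smooth muscle and pericyte markers summed to 2158 to 6154 CPM in shCBX8 and 846 to 2039 CPM in shCTR. Rgs5 (mean 3293 CPM in shCBX8 and 576 CPM in shCTR) and Mcam (498 CPM in shCBX8 and 60.0 CPM in shCTR) rose and carried the sum, Cspg4 and Abcc9 fell, and 6 of the 12 had a log2 fold change below 0. The 9 endothelial markers summed to 26.3 to 28.1 CPM in shCBX8 and 10.8 to 49.2 CPM in shCTR, with 2 higher, and the 6 immune markers to 8.87 to 13.9 and 4.31 to 6.37 CPM in the same order, with 2 higher. As to epithelial markers, the 7 horizontal basal cell markers summed to 2753 to 6142 CPM in shCBX8 and 343 to 1645 CPM in shCTR, and the 5 sustentacular markers to 3588 to 10065 and 128 to 1585 CPM in the same order. In each, 2 passed as higher, Trp63 and Krt17 among 7 tested, and Krt8 and Krt18 among 5 tested, where 17.0% of all genes were higher. Keratins carried both sums in shCBX8: Krt17 (mean 3347 CPM) the basal sum, and Krt8 and Krt18 (means 3130 and 4100 CPM) the sustentacular sum. The other sustentacular markers, Cyp2g1 (at most 1.94 CPM), Ermn (at most 3.29 CPM) and Cyp2a5 (104 to 269 CPM in shCBX8, 28.1 to 124 CPM in shCTR), did not pass. Icam1 of the basal list did not pass and averaged 106 CPM in shCBX8 and 187 CPM in shCTR. The 7 olfactory neuron markers summed to 23.5 to 82.3 CPM in shCBX8 and 52.0 to 117 CPM in shCTR, with Gnal higher. The 6 ensheathing markers summed to 8.30 to 28.3 CPM in shCBX8 and 8.47 to 38.4 CPM in shCTR, with S100b lower. The part of the makeup of the cultures in the lower elastic fibre transcripts was not tested.

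**Figure D5:**
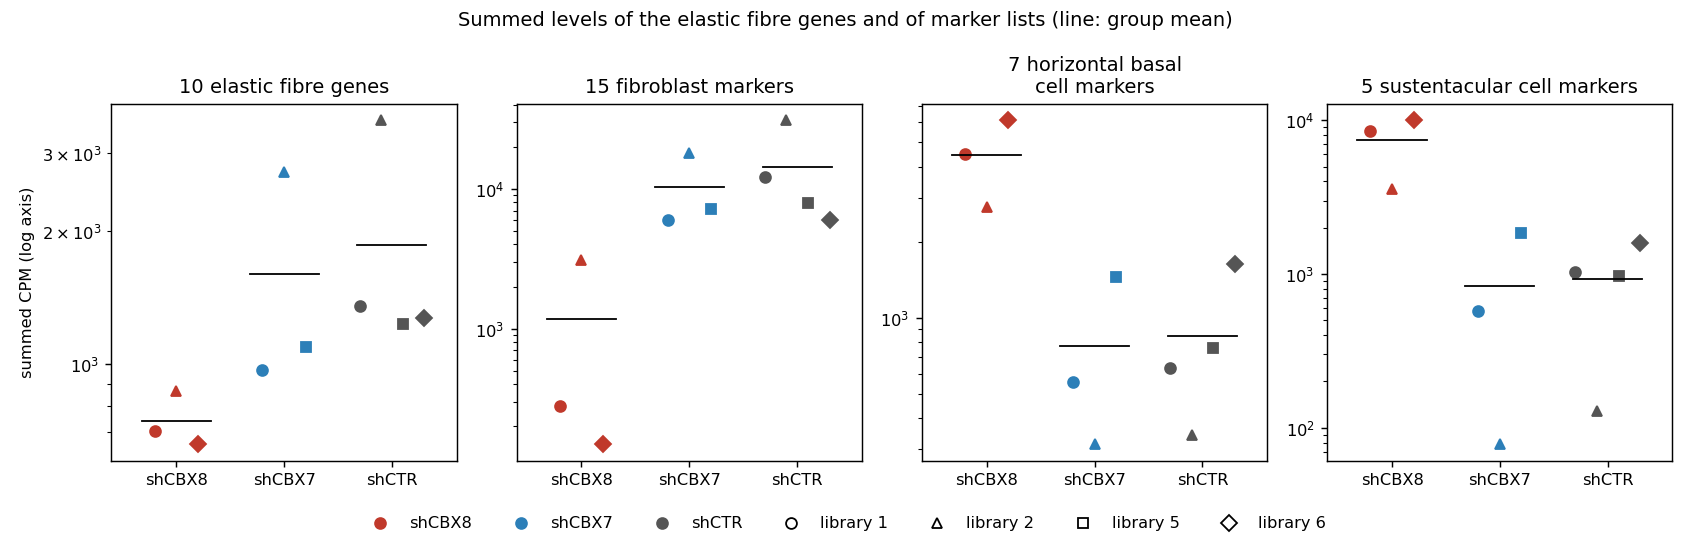
Summed CPM, on log axes, of the 10 elastic fibre genes, 15 fibroblast markers, 7 horizontal basal cell markers and 5 sustentacular markers in each library; marker shape gives the library number and the line the group mean. Elastic fibre sums are 656 to 867 CPM in shCBX8, 967 to 2727 CPM in shCBX7 and 1230 to 3575 CPM in shCTR, and libraries numbered 2 are high in the first 2 panels and low in the last 2.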

How the data were processed

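Total RNA was sequenced from 10 cultures (500 ng of RNA per stranded library, per the labels' protocols). The submitters' processing notes name bcl2fastq 2.17, Trim Galore 0.4.3, STAR 2.5.0a and the build mm10; which gene annotation was used is not stated there. Raw read counts per gene were deposited by the authors. Reverse-strand counts were used, since forward-strand counts were 3.42 to 10.4% of the stranded gene counts. Rows that name no gene stayed out of library sizes: unmapped (5.03 to 21.7% of reads), multimapping (15.4 to 22.1%), in no gene (12.5 to 23.6%) and ambiguous (0.290 to 0.637%). Of 41091 identifiers, 40217 matched GENCODE M21 (GRCm38), and the 874 others held at most 0.272% of a library's counts.

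edgeR 4.0.16 (R 4.3.3) used filterByExpr (minimum count 10; 16669 genes, all 10 members among them), trimmed-mean-of-M-values scaling and the quasi-likelihood test over all 10 libraries with group as the only factor. Adjusted p are Benjamini-Hochberg over all genes tested, with 0.05 as threshold; the script was tested on simulated data. SE is the log2 fold change divided by the root of its F statistic. Libraries of shCBX8 and shCTR with the same number deviated together from their group means (r = 0.23, 0.29 and 0.13 for numbers 1, 2 and 6, though number 6 reached the same r with another number). By the rule applied (every r over 0.1) this pairs them. Libraries of shCBX8 and shCBX7 also met the rule (0.17 and 0.36 for 1 and 2), though number 1 reached 0.27 with another number. Those of shCBX7 and shCTR (-0.07, 0.76 and 0.41 for 1, 2 and 5) did not meet it. The first fit did not use this pairing, and the block was an alternative. Alternatives were other scalings (RLE, library size), filters (none, a mean of at least 1 CPM), DESeq2 1.42.0, unstranded counts, only the 2 groups compared, the number as a block, leaving out each library in turn, shCTR 1 and 2 left out, and a threshold of 0.01.

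The members, gene lists, motifs and tests were chosen with earlier results of these data known. Genes are named by rule: all 10 members, the targeted genes, up to 4 genes per pathway list with the smallest p in shCBX8 against shCTR, and the 5 genes most like Eln. Ctsa is named besides these, as another gene of the elastin receptor list. Marker genes named beside their list were those that passed, were absent, define the tissue, or show what did or did not make up a sum. One marker list of the tissue is not reported here.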

Additional observations from a re-analysis of the deposited data

Results flagged for a closer look

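Among the 4 shCTR libraries, shCTR 2 stood so far above the others that Dixon's gap test at its 95% level singled it out for 4 of the 10 genes. These were Eln at 31.6 CPM, Fbln5 at 219 CPM, Efemp2 at 371 CPM and Lox at 694 CPM. In each the gap to the next library took 0.830 to 0.901 of the whole range of the group. The gaps were taken on CPM, not on their logarithm, and a log scale was not tested. Only for normally distributed values does chance alone set apart about 1 in 20 groups, and skewed values can exceed that rate. The 10 genes share the same libraries, so the 4 cases are not independent. The library shCTR 2 was also the highest of its group for the other 6 genes, and held the highest fibroblast marker sum, 31132 CPM. Groups of 3 libraries were not tested.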

How the results depend on the processing

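In shCBX8 against shCTR, 5 members passed and the count was 2 with only the 2 groups compared, 0 without shCTR 1 and 2 together, 8 with all libraries numbered 2 left out, 0 at a threshold of 0.01, and 0 to 5 when 1 library was left out. All genes called were 5478, against 2409 without shCTR 1 and 2, 1844 at 0.01, and 2261 to 6193 when 1 library was left out. Scaling by library size alone gave 3765 calls higher and 1839 lower, against 2827 and 2651, moved the median of all genes to 0.17 and called 5 members. For shCBX8 against shCBX7, 2 members passed and the count was 1 with only these groups, 5 with the replicate block, 1 without shCTR 1 and 2, 9 with the libraries numbered 2 left out, 0 at 0.01 and 0 to 4 when 1 library was left out; all genes called were 4762, against 1350 at 0.01 and 1784 to 6005 when 1 library was left out. For shCBX7 against shCTR, 0 genes passed, against 91 with DESeq2 and 0 to 41 when 1 library was left out. DESeq2 called 6 members in shCBX8 against shCTR and 3 in shCBX8 against shCBX7, and gave no adjusted p for Eln.

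Direction turned for some values that did not pass in the first fit. Without shCTR 1 and 2, shCBX7 against shCTR gave Efemp2 0.12, Emilin1 0.71, Fbln5 1.01 and Loxl1 0.37, and shCBX8 against shCTR gave Fbln5 0.75. With the libraries numbered 2 left out, shCBX7 against shCTR gave Eln -0.78, Fbln2 -0.25 and Fbn1 -0.046, shCBX8 against shCTR gave Fbln5 0.85, and shCBX8 against shCBX7 gave Fbln5 1.86 and Lox 1.19. With the replicate block, shCBX7 against shCTR gave Eln -0.12 and Fbn1 -0.093, and shCBX8 against shCBX7 gave Fbln5 0.40, Lox 0.34 and Loxl2 0.18. Unstranded counts gave Loxl1 0.0047 in shCBX7 against shCTR, and library size alone gave Lox 0.070 in shCBX8 against shCBX7. When 1 library was left out, values that turned ranged in shCBX8 against shCTR from -0.88 to 0.51 for Fbln5; in shCBX7 against shCTR from -3.14 to 2.63 for Eln, -0.46 to 0.53 for Fbn1, -0.59 to 0.62 for Fbln2, -2.12 to 0.78 for Fbln5, -0.52 to 0.058 for Efemp2, -0.62 to 0.35 for Emilin1 and -0.66 to 0.38 for Loxl1; and in shCBX8 against shCBX7 from -0.034 to 1.15 for Fbln2, -0.76 to 1.52 for Fbln5, -0.48 to 0.96 for Lox and -0.63 to 0.040 for Loxl2. The cause of these changes was not tested. In shCBX8 against shCTR the block changed no member's call other than that of Efemp2. At this depth Eln in shCBX8 rests on 3 to 9 reads per library.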
